A study of Homo sapiens with 6 samples.

Results

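HERVH is a family of human endogenous retroviruses, the remains of retroviral insertions inherited in the genome, and the repeat annotation splits it into HERVH-int, the internal part that once coded for viral proteins, and LTR7, the long terminal repeat (LTR) at either end. All repeat copies named HERVH-int or LTR7, with or without 1 subfamily letter, were taken from an RNA-seq table of HaCaT cells, which gave 9836 of the 771683 repeat copies. They comprised 5931 copies of HERVH-int, 2427 of LTR7, 888 of LTR7B, 332 of LTR7C and 258 of LTR7Y, and made up 2.57% of the annotated repeat length. HaCaT is a keratinocyte line from human skin that became immortal on its own in culture. The study compared 3 control libraries with 3 libraries of cells irradiated with ultraviolet B light (UVB) at a dose labelled 50 mJ, and its title asks whether ultraviolet light induces endogenous retroviruses. A culture time of 24 h is listed for all 6 libraries, controls included. All 6 libraries were of the same line, the labels give no area for the dose, and they do not say whether replicate dishes were separate experiments, so each p-value is measured against a spread that may be only technical.

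In a complete insertion the LTRs act as promoter and as end of transcription, with HERVH-int between them, while recombination between the LTRs of many insertions has left a solitary LTR. HERVH is best known from human pluripotent stem cells, where LTR7 is bound by pluripotency factors and drives long non-coding transcripts, among them ESRG. LTR7Y, LTR7B and LTR7C are subfamilies of the same LTR that entered the primate genome at different times. The table numbers each row with a number before and a number after a dot. Rows with the same first number were taken as the pieces of an annotated element, from their consecutive second numbers and LTR-internal-LTR order. The definition behind these numbers was not found in the sources used here, and every result by locus rests on that reading. That first number is called the locus here, and the second the copy. The 9836 copies fell into 3037 loci, which also held 26 rows of other repeat names. The table gives no coordinates for single repeat copies, so no copy's own sequence is printed.

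The libraries held 66272443 to 88484020 assigned reads, and repeat copies took 0.858% ± 0.0893 of them in control libraries and 0.771% ± 0.0208 in UVB libraries (SD, n = 3 each). The cells carried the genes of their label. All 7 keratinocyte markers were expressed, with a summed level of 683 to 857 FPKM, fragments per kilobase scaled by library depth, in the controls and 418 to 504 FPKM after UVB. KRT5 and SFN stood highest, at 287 and 354 FPKM in the controls, while KRT14 had only 1.02 FPKM. The markers did not move alike: by limma KRT5, KRT15 and SFN fell, COL17A1 and KRT14 rose, and TP63 and DSG3 were not called. The call of KRT14 was lost when UVB library 2 or UVB library 3 was left out. Of 6 markers of pluripotent cells, NANOG, DPPA4 and ESRG were listed at 0 in every library and LIN28A reached at most 0.043 FPKM, while SOX2 and POU5F1 were present. Of the 5 fibroblast markers DCN, COL1A2 and PDGFRB were at or near 0 and COL3A1 stood at 0.12 FPKM in the controls, while COL1A1, a collagen chain, rose from 0.778 to 1.75 FPKM (adjusted p = 0.0040 by limma). Of the 4 melanocyte markers TYR was at 0, DCT was at or near 0, MLANA stood at 0.0924 FPKM in the controls and PMEL had 0.786 and 0.898 FPKM. Of the 4 leukocyte markers CD3E was at 0 and PTPRC near 0, while CD14 had 6.36 FPKM in the controls and 4.93 FPKM after UVB (adjusted p = 0.099). The summed level of the leukocyte list was 10.7 to 12.04 FPKM in the controls and 18.6 to 26.2 FPKM after UVB. Its rise lay on CD68, a lysosomal protein, which rose from 5.16 to 18.2 FPKM (adjusted p = 0.00083 by limma). The part of these markers in the results on HERVH was not tested.

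HERVH was read in every library, and the family's total was slightly lower after UVB in reads per assigned read. HERVH and LTR7 copies together held 1532, 1746 and 1567 reads for each 1000000 assigned reads (RPM; each recovered unit is taken as a read) in control libraries 1, 2 and 3 and 1433, 1518 and 1471 RPM in UVB libraries 1, 2 and 3. All 3 UVB values were below all 3 control values, by 0.13 on the log2 scale of group means. The 2-sided exact permutation test gave p = 0.1, which is the smallest value that 3 against 3 libraries allow. The direction depended on the scale. Relative to the reads on repeat copies, which themselves were lower by 0.15 on the log2 scale (exact permutation p = 0.2), the family was higher by 0.02 (exact permutation p = 0.7). Its share of all repeat reads was 18.5, 18.2 and 19.9% in control libraries and 19.1, 19.2 and 19.1% in UVB libraries. These shares overlapped (exact permutation p = 0.7). In bulk RNA, fewer cells carrying a transcript and less of it in each cell cannot be told apart.

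By name, HERVH-int held 1332, 1539.8 and 1378 RPM in the controls and 1246, 1336 and 1295 RPM after UVB, more than any other of the 595 repeat names in the table. The groups overlapped (exact permutation p = 0.2). Per base, LTR7Y stood first among these names, with a mean of 1.18 FPKM, and HERVH-int second with 0.233 FPKM, against a median of 0.0199 FPKM. The other subfamilies were far lower per base, at 0.0694 FPKM for LTR7C, 0.0562 FPKM for LTR7 and 0.0526 FPKM for LTR7B. Single copies weighed much in the level of LTR7Y. Its copies 47419, 176947 and 286498 had means of 32.8, 19.5 and 16.4 RPM, of 109 RPM for the whole name. LTR7Y summed to 117.4, 117.6 and 112.1 RPM in the controls and 105.4, 102.1 and 102.1 RPM after UVB, without overlap (exact permutation p = 0.1). LTR7 held 57.25 ± 4.81 RPM in the controls and 52.6 ± 1.51 RPM after UVB, and LTR7B held 16.7 ± 3.18 and 16.8 ± 0.0919 RPM (SD, n = 3 each). LTR7C held 9.06 ± 1.91 and 9.13 ± 2.55 RPM. In the limma fit over 577 repeat names, 0 rose (0%) and 7 fell (1.21%), and none of the 5 HERVH and LTR7 names was among them. Their adjusted p-values ran from 0.402 for LTR7Y to 0.977 for LTR7C. None reached an unadjusted p under 0.05, and edgeR on recovered reads called 0 of the 5. On the edgeR scale HERVH-int, LTR7 and LTR7Y turned from lower to higher, by 0.05, 0.06 and 0.01 on the log2 scale. LTR7C, whose log2 difference of -0.01 was opposite in sign to that of its mean RPM, stood at 0.16 there.

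**Figure D1:**
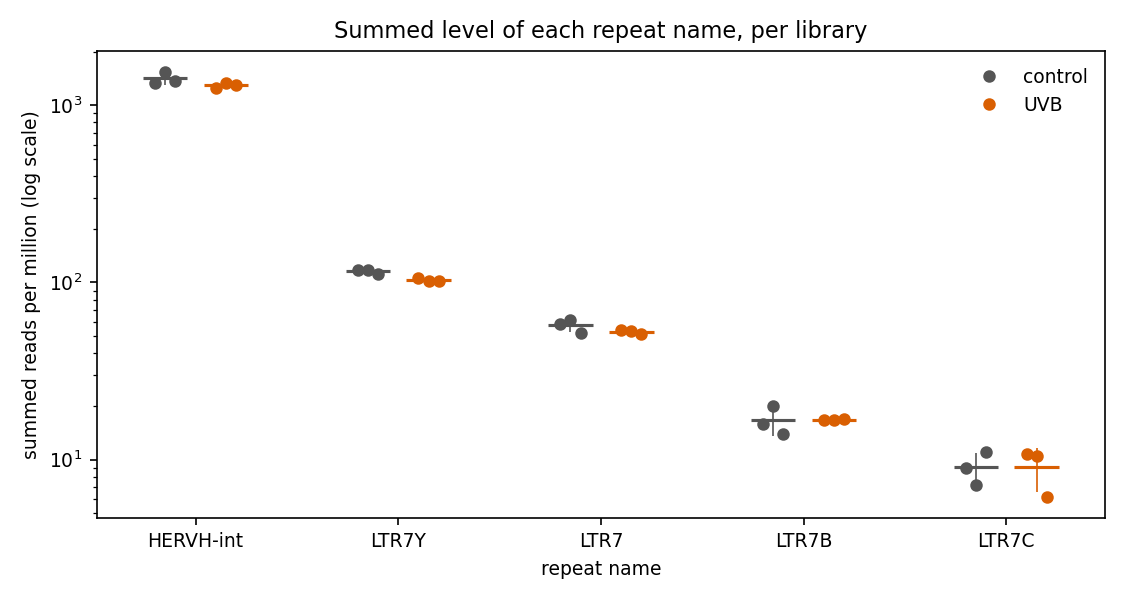
Summed RPM on a log scale for each repeat name, with a point per library in control (grey) and UVB (orange), a bar at the mean and a line of 1 SD to either side (n = 3). HERVH-int stands above 1200 RPM in every library, and only the LTR7Y groups are without overlap, at 112.1 to 117.6 RPM in the controls and 102.1 to 105.4 RPM after UVB, a direction that turned with the scaling of edgeR.

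For comparison, copies of HERVK-int and LTR5, a younger retroviral family, held 131 ± 8.73 RPM in the controls and 127 ± 3.97 RPM after UVB (exact permutation p = 0.7). Copies of HERV9-int and LTR12 held 176 ± 23.9 RPM and 161 ± 1.87 RPM (exact permutation p = 0.4, SD, n = 3 each). The reads on HERVH and LTR7 copies thus exceeded those of both families together in every library.

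Few loci held most of these reads. Without coordinates, reads of genes that overlap a copy could not be told apart from transcripts of the insertion itself. A read was found on 2292 copies and 1099 loci, and 7544 copies and 1938 loci had none in any library, where a count of 0 allows up to 3 reads, or 0.0339 to 0.0453 RPM by library depth. These limits cover counting error only. The number of copies with a read was 1076, 1112 and 1085 in control libraries and 1003, 1113 and 1021 in UVB libraries, which overlapped (exact permutation p = 0.4). The highest locus alone held 26.8% of the family's reads, the highest 4 held 74.6% and the highest 20 held 91.7%.

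Level differed with the structure of the locus. Of the 3037 loci, 859 had HERVH-int with an LTR7 copy at both ends, and 64.3% of these had a read and they held 86.7% of the family's reads. Another 431 loci had HERVH-int with LTR copies but not at both ends, of which 44.1% had a read, and they held 10.5%. The 1656 loci that were LTR only, with a median length of 415.5 bases, had a read in 20.05% of cases and held 1.72%. By the name of the LTR, 185 LTR7Y loci held 54.5% of the reads, against 32.9% for 1720 LTR7 loci, 8.54% for 291 LTR7C loci and 3.05% for 750 LTR7B loci. Longer loci have more room for reads, and these shares are not per length. They also rest on few loci. The highest 4, with 74.6% of the family's reads, all had LTR copies at both ends. Loci 1909981, 335105 and 1141665 had means of 316, 238 and 185 RPM, of 842 RPM over the LTR7Y loci. Locus 132666 had 413 of 508 RPM over the LTR7 loci. The internal copy of locus 1865840 had 107 of 132 RPM over the LTR7C loci.

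The 5 highest loci were 132666, 1909981, 335105, 1141665 and 1865840. Locus 132666, with LTR7 at both ends, held 382, 437 and 401 RPM in the controls and 402, 433 and 426 RPM after UVB. Locus 335105, with LTR7Y at both ends, held 234, 228 and 225 RPM and then 266, 239.6 and 233 RPM. Locus 1865840, a single internal copy of 5524 bases with an LTR7C copy at 1 end, held 87.7, 120.6 and 112.5 RPM and then 90.6, 117.6 and 111.6 RPM. The groups overlapped in all 3 of these loci, and limma gave adjusted p = 0.701, 0.387 and 0.999. Loci 1909981 and 1141665 fell after UVB, as described next. The 4 highest loci thus did not move alike, and their sum mixes these falls with the uncalled loci 132666 and 335105. Together the 4 highest loci held 1231 ± 73.3 RPM in the controls and 1073 ± 23.7 RPM after UVB without overlap (exact permutation p = 0.1), while all other members held 384 ± 41.5 and 401 ± 19.5 RPM and overlapped (exact permutation p = 0.6, SD, n = 3 each).

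**Figure D2:**
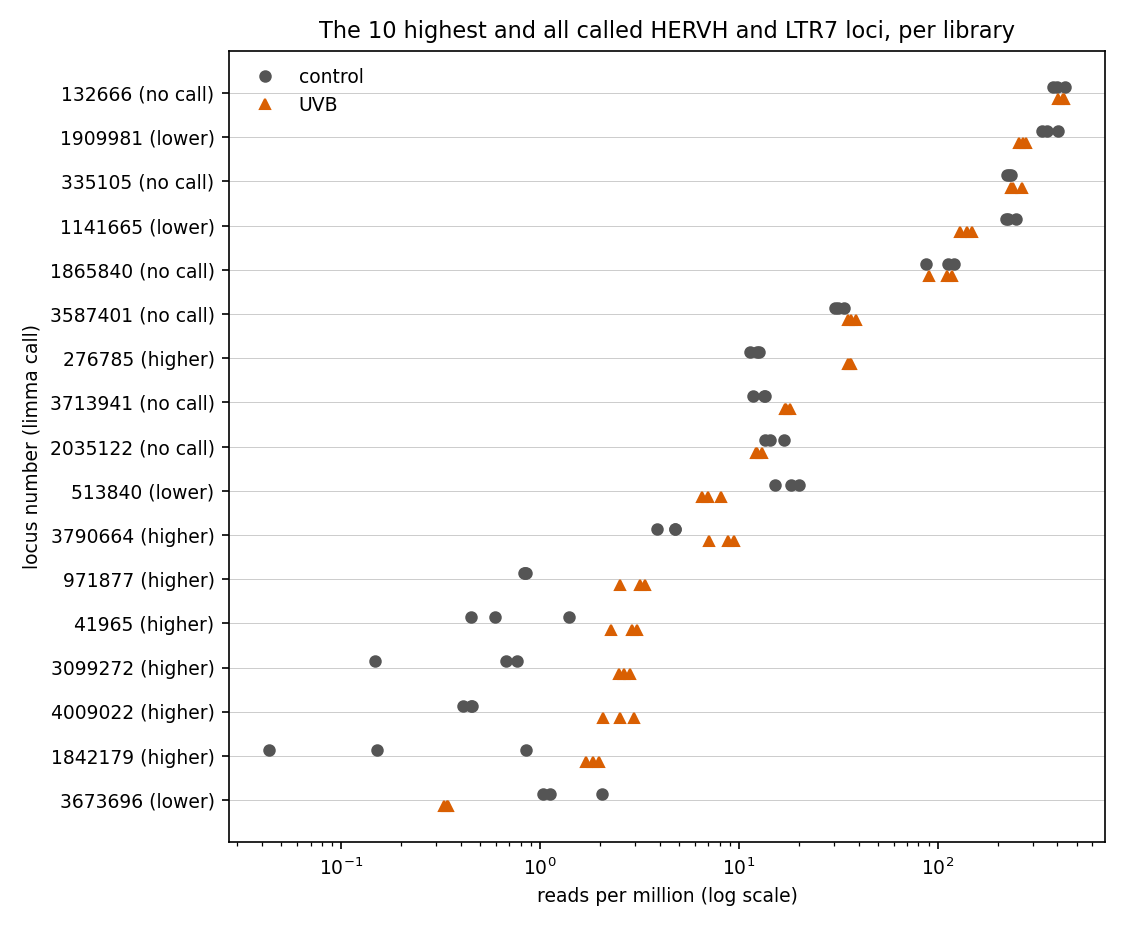
RPM on a log scale (horizontal) in each control (grey circles) and UVB library (orange triangles) for the 10 highest loci and every locus that limma called, ordered by mean level. Locus 276785 moved from 11.4 to 12.7 RPM in the controls to 35.3 to 36.6 RPM after UVB, while locus 132666 overlapped between the groups.

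Changes after UVB were read locus by locus. Of the 232 loci with a mean of at least 0.1 RPM, limma on log2(RPM + 0.1) called 7 higher and 4 lower at an adjusted p under 0.05, which is 4.74%. Over all 11715 repeat loci tested, 0.145% rose and 0.111% fell, 0.256% in both directions. HERVH and LTR7 loci were 11 of the 30 loci called, 36.7%. On recovered reads edgeR called 3 higher and 2 lower, against 0.0939% of all repeat loci, and DESeq2 called 9 higher and 5 lower, against 0.99%. Tested HERVH and LTR7 loci were also deeper, with a median of 0.319 RPM against 0.20 RPM in the others. Among loci with a mean of at least 0.5 RPM, 10 of 84 HERVH and LTR7 loci were called, 11.9%, against 1.76% of all 2161 repeat loci at that level. The median log2 fold change was -0.09 over the tested HERVH and LTR7 loci and -0.09 over all tested repeat loci. Every called locus had HERVH-int with LTR copies at both ends, the structure of 126 of the 232 tested loci.

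**Figure D3:**
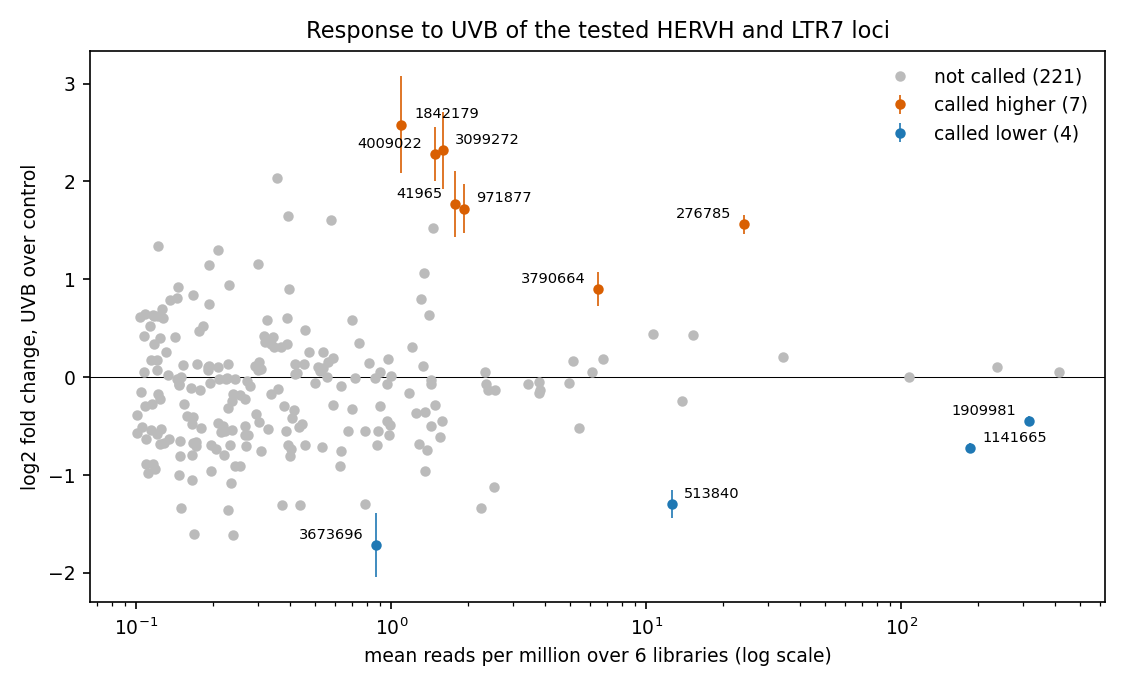
Log2 fold change of UVB over control (vertical) against mean RPM on a log scale (horizontal) for the 232 tested HERVH and LTR7 loci, with a bar of 1 standard error on each called locus. The 7 loci called higher (orange) have means of at most 24.1 RPM, and 2 of the 4 called lower (blue) are among the 5 highest loci.

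The clearest rise was in locus 276785, an insertion of 6181 annotated bases with LTR7Y at both ends. It held 12.3, 12.7 and 11.4 RPM in the controls and 36.6, 36.2 and 35.3 RPM after UVB, from 841 to 928 and from 2655 to 3201 reads. Every UVB library was thus above every control, by 2.97-fold, with a log2 fold change of 1.56 ± 0.0987 (SE, adjusted p = 2.5e-07 by limma). The rise ran along the insertion. All 8 of its tested copies were higher, with log2 fold changes of 1.29 to 1.75, and 6 of them were called. The internal copies 38440, 38441, 38442 and 38443 had log2 fold changes of 1.47, 1.60, 1.68 and 1.35. Its longest internal copy, 38438 of 3415 bases, had 298, 270 and 342 reads in the controls and 1025, 1224 and 970 after UVB, a log2 fold change of 1.65 ± 0.136 (SE, adjusted p = 3.6e-05). Copy 38444, an LTR7Y, rose from 4.28 ± 0.619 to 10.8 ± 1.69 FPKM (SD, n = 3 each). Of these 6 calls only that of 38438 held whichever library was left out and with edgeR.

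Other loci that rose started from a low level. Locus 4009022, with LTR7 at both ends, had 31, 27 and 37 reads in the controls and 184, 183 and 236 after UVB, 0.436 ± 0.0255 against 2.53 ± 0.453 RPM (SD, n = 3 each), a log2 fold change of 2.28 ± 0.277 (SE, adjusted p = 0.00061). In its internal copy 650142 the controls held 2, 0 and 6 reads and the UVB libraries 67, 96 and 107. That copy passed the minimum mean of 0.1 RPM only through its UVB reads. Its call was lost at a minimum mean of 0.5 RPM (adjusted p = 0.061 by limma). The locus as a whole was above 0.1 RPM in the controls. Another 2 internal copies of that locus had no read in any control, and of these 650146 had 30, 19 and 34 reads after UVB. Locus 971877, with LTR7B at both ends, had 58, 55 and 69 reads and then 230, 299 and 199, a log2 fold change of 1.72 ± 0.248 (SE, adjusted p = 0.0036). The called copy of that locus was an LTR7B, 145438, with 16, 12 and 9 reads and then 54, 97 and 71. That call was lost whichever library was left out, with edgeR (adjusted p = 0.098) and in 5 other settings, with adjusted p from 0.00129 to 0.21 over all alternatives. As whole loci, both and 276785 passed limma with any 1 library left out, and edgeR and DESeq2 on recovered reads called them too.

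The remaining 4 calls upward were less steady. Locus 3099272, with LTR7Y, had 47, 51 and 12 reads in the controls and 180, 234 and 224 after UVB, a log2 fold change of 2.32 (adjusted p = 0.012), which was lost whichever UVB library was left out. Locus 1842179, with LTR7B, had 3, 10 and 69 reads and then 144, 151 and 146, a log2 fold change of 2.58 (adjusted p = 0.040). Locus 41965, with LTR7C, had 31, 93 and 48 reads and then 223, 201 and 230, a log2 fold change of 1.77 (adjusted p = 0.038). In these loci control libraries differed among themselves by several fold, while the UVB libraries lay close together. Locus 3790664, with LTR7, rose from 3.86, 4.78 and 4.76 RPM to 9.47, 8.86 and 7.06 RPM, a log2 fold change of 0.90 (adjusted p = 0.040). The calls of 1842179 and 41965 held in 1 of the 6 fits that left out a library and that of 3790664 in 2, and edgeR called none of the 4. DESeq2 called 3 of them and not 1842179 (adjusted p = 0.401).

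Falls were found at both ends of the range of levels. Locus 1141665, with LTR7Y at both ends, held 226, 246 and 221 RPM in the controls and 129, 149 and 141 RPM after UVB. Its groups were far apart, with a log2 fold change of -0.73 ± 0.0527 (SE, adjusted p = 1.0e-06). Most of it lay on the internal copy 176943 of 3926 bases, with 12536, 14204 and 15446 reads and then 7974, 10902 and 9670, and on the LTR7Y copy 176947, which fell from 57.9 ± 3.17 to 32.0 ± 1.37 FPKM (SD, n = 3 each). Locus 1909981, also with LTR7Y, held 336, 403 and 356 RPM and then 255, 278 and 268 RPM, a log2 fold change of -0.45 ± 0.0509 (SE, adjusted p = 0.00030). All 7 of its copies were lower, by 0.37 to 0.64 on the log2 scale, and 4 of them were called. With edgeR the adjusted p of this locus was 0.105, and none of its 4 copies was called.

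Locus 513840, with LTR7 at both ends, had 1271, 1333 and 1242 reads in the controls and 507, 716 and 517 after UVB, 17.9 ± 2.45 against 7.20 ± 0.808 RPM (SD, n = 3 each). Every UVB library was below every control, with a log2 fold change of -1.30 ± 0.143 (SE, adjusted p = 0.000225). All 7 of its copies were lower, and its internal copy 75529 was called. Locus 3673696, with LTR7Y, had 72, 135 and 91 reads and then 25, 30 and 26, a log2 fold change of -1.72 (adjusted p = 0.040), which was lost whichever library was left out. The calls of 1909981, 1141665 and 513840 held with each library left out.

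**Figure D4:**
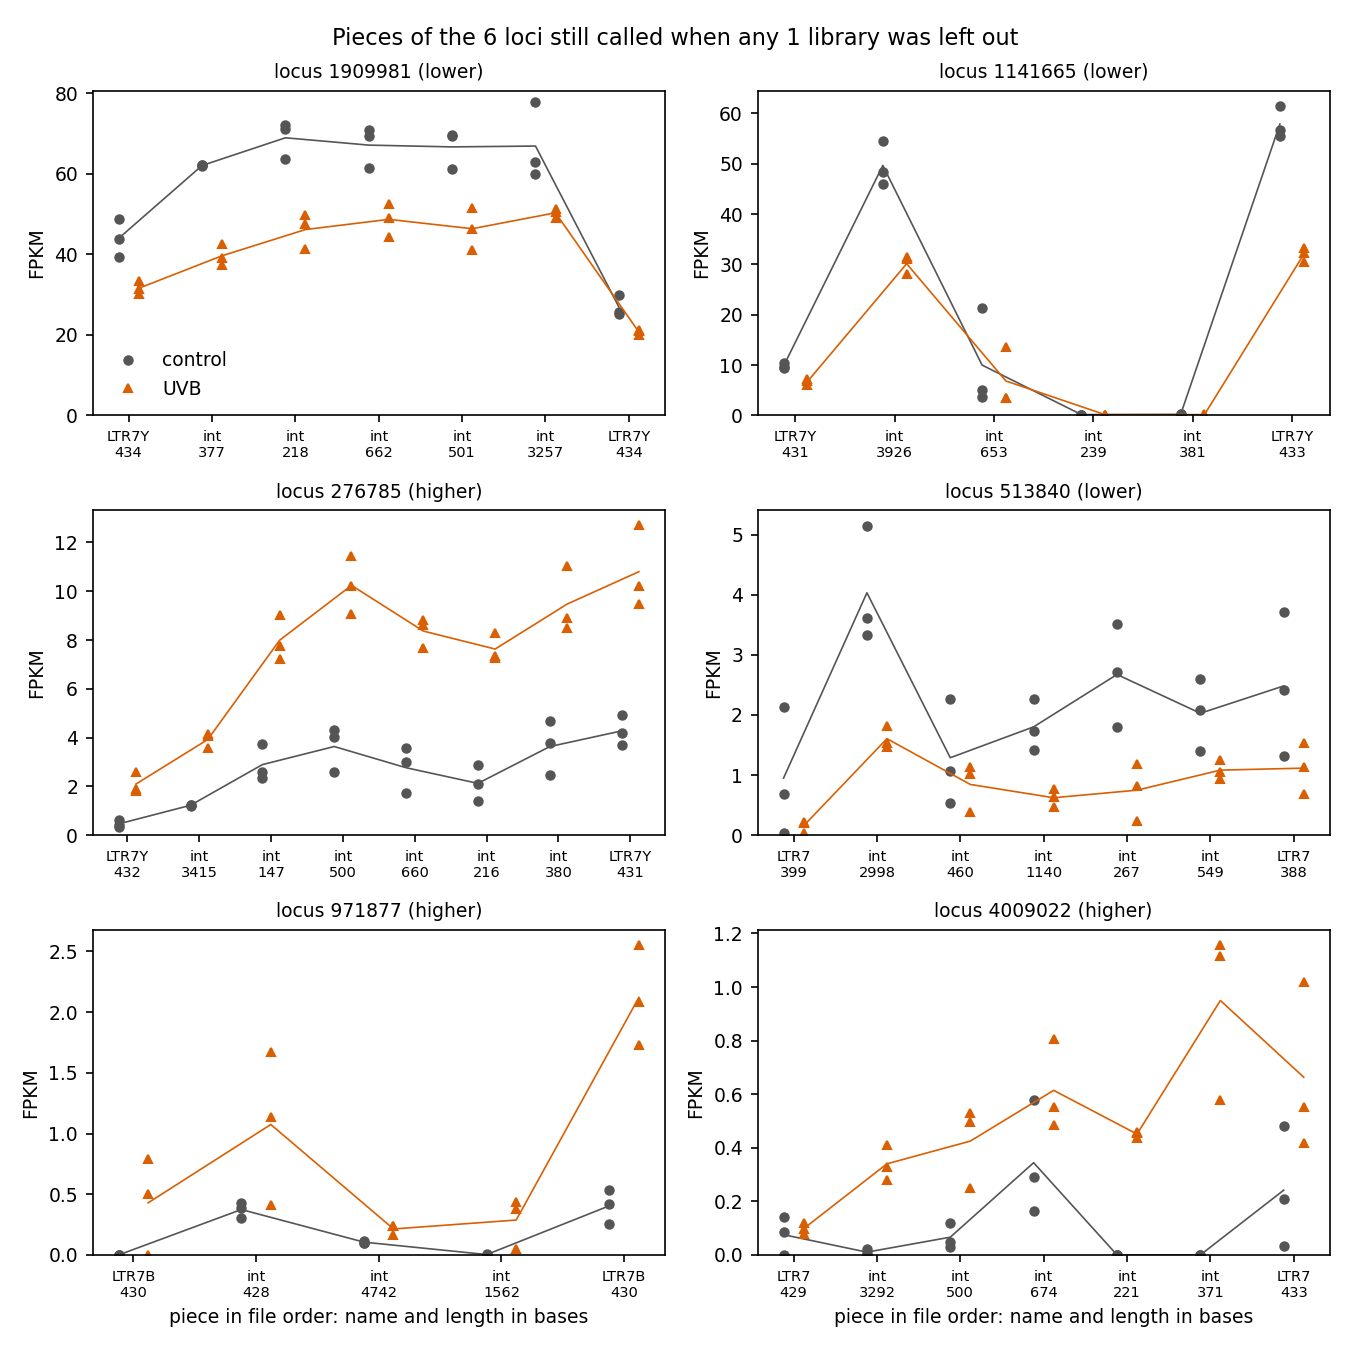
FPKM of each piece in file order (name and length in bases under the axis) for the 6 loci whose call held with each library left out, with points for control (grey) and UVB libraries (orange) and lines through the group means; vertical scales differ. In locus 276785 every piece is higher after UVB, and in 1909981 and 513840 every piece is lower in the mean, with the same outline along the insertion in both groups of 276785.

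Loci whose groups did not overlap numbered 20 higher, 8.62%, and 35 lower, 15.1%, against 6.13% and 10.1% of all repeat loci tested. The 3 highest of these in log2 fold change, 1842179, 3099272 and 4009022, and the lowest, 3673696, are given above. Locus 1851235 had 0.288, 0.498 and 0.418 RPM in the controls and 0, 0.181 and 0.0504 RPM after UVB, and locus 2680597 had 0.360, 0.302 and 0.246 RPM and then 0.0689, 0.0339 and 0 RPM. Both missed the threshold, with adjusted p = 0.169 and 0.151, and both passed the minimum mean only through their controls.

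Among single copies, limma called 8 higher and 7 lower of 375 tested, 4%, against 0.114% higher and 0.122% lower over the 12332 repeat copies tested, 0.235% in both directions. HERVH and LTR7 copies were 15 of the 29 repeat copies called, 51.7%, and the 15 lay in 6 loci, so they are not 15 separate events. On recovered reads edgeR called 2 higher and 2 lower, against 0.0649% of all repeat copies, and DESeq2 called 17 higher and 11 lower, against 0.908%. The copies called by limma were 6 HERVH-int, 1 LTR7Y and 1 LTR7B among the higher and 6 HERVH-int and 1 LTR7Y among the lower. At a mean of at least 0.5 RPM 16 of 130 copies were called, 12.3%, against 1.75% of all 2059 repeat copies at that level. The median log2 fold change of tested copies was -0.04, against -0.08 over all tested repeat copies. Groups did not overlap in 48 copies that were higher, 12.8%, and 55 that were lower, 14.7%, against 6.41% and 9.76% of all repeat copies tested.

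The copies with the largest fold changes among those without overlap included some with no read in a whole group. Copy 49991 of locus 349020, an internal copy of 3236 bases, had 38, 11 and 48 reads in the controls and none after UVB, with adjusted p = 0.066 by limma. The whole locus was not silent after UVB. The LTR7 opposite its longest internal copy had mean levels of 0.178 FPKM in the controls and 0.450 FPKM after UVB, on 61 reads, and the locus was not called. Copy 200247 of locus 1278918 had 36, 25 and 24 reads and then 9, 0 and 0, with adjusted p = 0.134. Copies 413732 of locus 2680597, 278370 of locus 1851235 and 75532 of locus 513840 followed, with log2 fold changes of -1.75, -1.61 and -1.50. On the higher side stood 650142, given above, and copy 493424 of locus 3099272, with 38, 23 and 0 reads and then 138, 172 and 155 (adjusted p = 0.055). Copy 277304 of locus 1842179 had 0, 10 and 61 reads and then 103, 127 and 90 (adjusted p = 0.153). Next came 650146, given above, and copy 145437 of locus 971877, with 1, 0 and 0 reads and then 43, 60 and 6 (adjusted p = 0.182). Of these 10 copies limma called 650142 alone, and edgeR did not call it. Copies 650142, 650146 and 145437 passed the minimum mean only through UVB libraries, and 49991 and 200247 only through controls. Their lack of overlap is therefore no independent support for a change.

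The 10 highest copies were all HERVH-int, 4 of them in locus 132666. Copy 15851 of that locus, 3245 bases long, was the highest of all, with 206, 256 and 216 RPM in the controls and 232, 249.8 and 251 RPM after UVB (adjusted p = 0.522). Copy 286503 of locus 1909981 held 195, 253 and 205 RPM and then 159.9, 167 and 165 RPM, a log2 fold change of -0.40 (adjusted p = 0.027). That call was lost when any UVB library was left out (adjusted p = 0.183, 0.170 and 0.112) and with edgeR (adjusted p = 0.193). The third, 176943, is given above. Copies 279988 of locus 1865840 and 47413 and 47416 of locus 335105 had log2 fold changes of -0.0003, 0.16 and 0.11, and 15854, 15853 and 15856 of locus 132666 had -0.05, 0.06 and -0.09, none of them called. Copy 286501 of locus 1909981 had -0.46 (adjusted p = 0.032), a call that was lost in 5 of the 6 fits that left out a library. In locus 132666 the internal copies lay at similar levels per base in the controls, between 58.2 and 90.5 FPKM, and none of its 8 copies was called.

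The LTRs at the ends of an insertion were not read alike. Of 26 tested loci with an LTR beside the longest internal copy, another at the opposite end and at least 60 reads on both together, the opposite LTR was higher per base in 19, with a median ratio of 2.74. This was so in all of the highest 10 of these loci, and in 10 of 11 LTR7Y pairs, 8 of 14 LTR7 pairs and the single LTR7B pair. The LTR7 pair of locus 3274774, one of the 8, was of unequal length, with 115 bases beside the longest copy and 415 bases at the opposite end. In locus 132666 the LTR7 beside the longest copy stood at 7.89 FPKM and the opposite one at 71.8 FPKM. In locus 335105 these values were 6.45 and 74.3 FPKM, and in locus 276785 they were 1.28 and 7.54 FPKM. The reverse was seen in locus 335108, with 7.35 and 0.0970 FPKM. Among the others with this order were locus 1114704, with 0.797 and 0.0406 FPKM, and locus 3673695, with 0.283 and 0.0315 FPKM. The opposite LTR was higher in 19 loci by the control means and in 20 by the UVB means, so the order was alike in both groups by count. The LTRs of an insertion are close copies of each other, and how the authors counted reads that match several copies is not given in the sources used here.

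**Figure D5:**
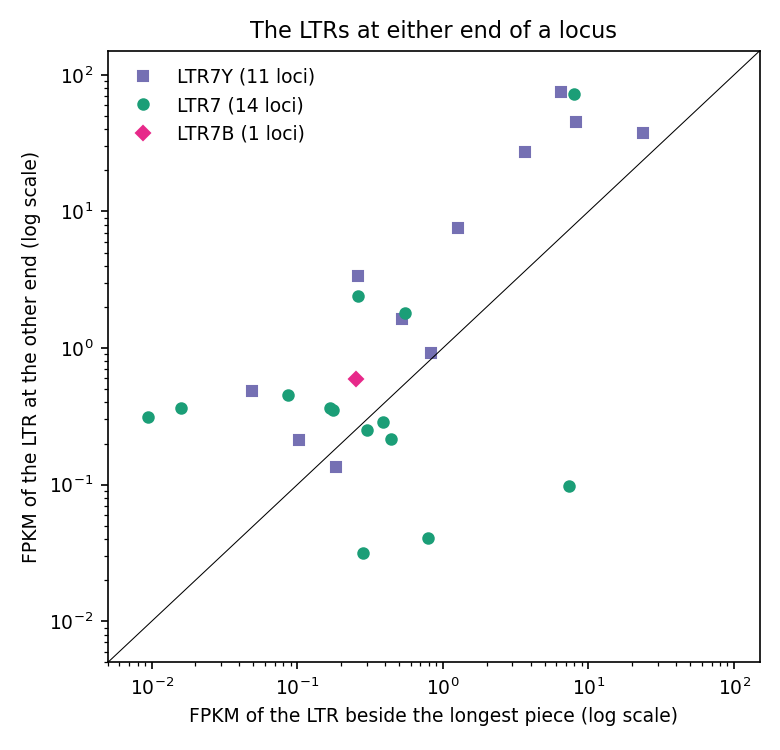
FPKM of the LTR opposite the longest internal copy (vertical) against FPKM of the LTR beside it (horizontal), both on log scales and as means of 6 libraries, for 26 loci marked by subfamily; the line marks equal levels. The opposite LTR is higher in 19 of them. Locus 335108 lies farthest below the line, and loci 1114704 and 3673695 also lie well below it.

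The authors' deposited table, tested with all rows together, gives adjusted p-values for 2292 HERVH and LTR7 copies, of which 17 were higher and 13 lower at under 0.05. That is 0.742% and 0.567%, against 0.0517% and 0.0907% of 110230 repeat copies in the authors' deposited table. All 15 copies called by limma were also called in the authors' deposited table, which called 29 of the 375 copies tested here. The authors also deposited a sheet of 74 repeat copies, all higher after UVB in the authors' deposited table. Of these, 16 were HERVH or LTR7 copies, from 8 loci, and 8 of the 16 were the copies of locus 276785. The sheet therefore shows none of the HERVH and LTR7 copies that fell.

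Genes known from other cells to start in, or carry, HERVH or LTR7 sequence were mostly silent. Of 11 such genes, 6 were listed at 0 in every library, ESRG, LINC00458, LINC01108, SCGB3A2, HHLA1 and HHLA2. LINC-ROR and ABHD12B reached at most 0.0645 FPKM. Of the 3 tested, UCA1, a long non-coding RNA first described in bladder carcinoma, had 41.1, 44.7 and 42.8 FPKM in the controls and 33.4, 36.7 and 39.3 FPKM after UVB. These groups did not overlap, and the log2 fold change of -0.23 ± 0.0682 (SE) passed narrowly, with adjusted p = 0.049 by limma, in a fit where 17% of 14921 genes rose and 11% fell. The call was lost in 5 of the 6 fits that left out a library. CALB1, a calcium-binding protein, had 1.14 ± 0.187 and 1.48 ± 0.0782 FPKM, and HHLA3 had 1.78 ± 0.304 and 1.96 ± 0.469 FPKM (SD, n = 3 each), and neither was called (adjusted p = 0.122 and 0.687).

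Of 8 factors known to act on LTR7 in pluripotent cells, 7 were tested, 4 rose and 1 fell, where 17% of all tested genes rose and 11% fell. SOX2, a pluripotency and epithelial stem cell factor, fell from 4.42, 4.58 and 3.71 FPKM to 1.45, 1.54 and 1.51 FPKM, a log2 fold change of -1.06 ± 0.0829 (SE, adjusted p = 0.00047). KLF4, which also acts in epidermal differentiation, rose from 5.93, 6.39 and 5.77 FPKM to 12.5, 12.8 and 11.9 FPKM, a log2 fold change of 0.93 ± 0.0572 (SE, adjusted p = 0.00022). SALL4 rose from 2.28 ± 0.117 to 3.40 ± 0.0954 FPKM, the acetyltransferase EP300 from 5.68 ± 0.406 to 7.79 ± 0.281 FPKM and TFCP2L1 from 1.63 ± 0.145 to 2.29 ± 0.122 FPKM (SD, n = 3 each). The call of TFCP2L1 was lost in 5 of the 6 fits that left out a library. POU5F1 had 0.958 ± 0.134 and 0.598 ± 0.175 FPKM and KLF5 had 38.3 ± 1.72 and 42.0 ± 10.9 FPKM, and neither was called (adjusted p = 0.094 and 0.746). NANOG was listed at 0. The median log2 fold change of the 7 was 0.33, against 0.04 over all tested genes.

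Of 6 genes known to restrain HERVH, 5 were tested and 3 rose, where 17% of all tested genes rose. DNMT1, the maintenance DNA methyltransferase, rose from 26.1 ± 1.37 to 35.4 ± 2.16 FPKM, a log2 fold change of 0.43 ± 0.0618 (SE, adjusted p = 0.0043). MPHOSPH8 and MORC2, parts of a machinery that silences repeats, rose from 8.56 ± 0.659 to 12.2 ± 0.738 FPKM and from 5.75 ± 0.711 to 7.28 ± 0.346 FPKM (SD, n = 3 each), the latter with a call that was lost in 5 of the 6 fits that left out a library. TRIM28, the corepressor that zinc finger proteins recruit to LTR7, had 105 ± 2.87 and 115 ± 4.01 FPKM, and the histone methyltransferase SETDB1 had 6.41 ± 0.356 and 7.34 ± 0.277 FPKM (adjusted p = 0.065 and 0.077). ZNF534, a zinc finger protein reported on LTR7, was listed at 0 in every library. The median log2 fold change of the 5 was 0.30, against 0.04 over all tested genes. Any part of these genes in the levels of HERVH loci was not tested.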

How the data were processed

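RNA from 3 control and 3 UVB dishes of HaCaT cells was sequenced, and the titles gave the groups. The submitters' processing notes list HISAT2 2.0.5, StringTie, DESeq and GRCh38. How reads were counted, by strand or at several matches, and which repeat annotation was used is not stated there. The authors deposited FPKM values of genes and repeat copies, and whole read counts of 74 repeat copies. Per the file headers, the same tables hold the authors' log2 fold changes, their errors and test scores, p-values, and a mean signal over all libraries.

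RPM is FPKM times length in kilobases. With the counts of the 74 copies, 100% of non-zero values came out as whole numbers within 0.01, taken as reads, although a unit may not be a single read. Copies, loci and names with a mean of at least 0.1 RPM were tested over all repeats with limma 3.58.1 (eBayes with trend, R 4.3.3) on log2(RPM + 0.1), and genes averaging 0.5 FPKM or more on log2(FPKM + 1). Fold changes are on these scales and understate those of low features. The minimum is a mean over all 6 libraries, so a feature near 0 in 1 group could pass through the other group alone. A feature was called at an adjusted p (Benjamini-Hochberg) under 0.05. Single sums were tested with exact 2-sided permutation tests (scipy 1.17.1). edgeR 4.0.16 (quasi-likelihood) and DESeq2 1.42.0 on recovered reads were alternatives, and edgeR called 8 of 12332 repeat copies. Scripts were tested on simulated data.

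By the naming rule, the text names the 10 highest copies, up to 10 of those called, and the 5 highest and 5 lowest fold changes among copies whose groups do not overlap; for loci these numbers are 5, 10 and 3. Other copies and loci were chosen after their values were seen. Members and lists were chosen with earlier results of these data known. A comparison of transcript sequences is not reported here.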

Additional observations from a re-analysis of the deposited data

How the results depend on the processing

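All 35 single calls of copies, loci and genes, the gene alternatives added after seeing the data, kept their direction in 472 values under the alternatives, and 131 of these missed the threshold. A minimum mean of 0.5 RPM, no filter, and the library number as a block leave each log2 difference unchanged by construction. No direction could turn in those settings. Against 8 higher and 7 lower copies, the counts were 17 and 11 with DESeq2, 2 and 2 with edgeR, 17 and 12 without a filter, 5 and 4 with a pseudocount of 0.02 RPM, and 12 and 4 on repeat reads alone. Leaving out a library gave 2 to 7 higher and 3 to 6 lower copies. Against 7 higher and 4 lower loci, the counts were 3 and 2 with edgeR, 1 and 2 on log2(FPKM + 1), 13 and 6 without a filter, and 4 and 3 with a pseudocount of 0.02 RPM. Leaving out a library gave 3 to 7 higher and 3 to 4 lower loci. The cause of these changes was not tested, except that the counts without a filter rest on a poor fit. There, limma's prior SD for the 10 highest repeat copies was 0.0175, against a measured median of 0.114, so its adjusted p-values are too small and lend no support. With the filter the prior was 0.0711, so the p-values of the highest copies may also be too small, and for the 10 highest loci it was 0.0822 against 0.092.

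Sums turned from lower to higher relative to repeat reads alone, by 0.0199 for all copies, 0.0197 for HERVH-int and 0.0214 for LTR7 of all subfamilies, with name sums at 0.0197 for HERVH-int, 0.0298 for LTR7 and, from -0.01, 0.14 for LTR7C. With edgeR the name sums stood at 0.0459 for HERVH-int, 0.0580 for LTR7, 0.16 for LTR7C and 0.0103 for LTR7Y. Leaving out a library gave -0.0908 to 0.17 for LTR7B and -0.17 to 0.24 for LTR7C (all log2).

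Same-numbered libraries showed little shared deviation, with correlations of -0.014, -0.0025 and -0.021 over repeat copies and 0.048, 0.022 and 0.030 over genes. Single genes could differ from this. TP63 had 17.4, 8.25 and 8.35 FPKM in the controls and 16.2, 7.40 and 7.17 FPKM after UVB, with library 1 highest in both groups, as it was for KRT5. With the number as a replicate block, 6 higher and 7 lower copies and 5 higher and 3 lower loci were called. The block leaves the log2 differences as they are by construction, and it lost the calls of loci 41965, 3790664 and 3673696. Leaving out copies that overlap exons was not run, since the table gives no coordinates. No library had a read on 7544 of the 9836 copies, and a change in them was not detectable at this depth.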

Other observations

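Reads on some copies were present in 1 library and nearly absent from another of the same group. Copy 179383 of locus 1155599, an LTR7C of 469 bases, had 284, 1 and 328 reads in the controls and 274, 299 and 1 after UVB. Copy 468807 of locus 2977800 had 86, 81 and 97 reads and then 0, 99 and 110, and its neighbour 468808 had 1, 1 and 1 and then 42, 58 and 1. In the otherwise lower locus 1141665, the internal copy 176944 had 964, 219 and 196 reads and then 169, 785 and 176, so that 1 control and 1 UVB library stood several fold above the rest. Counted over all 6 libraries, and not within a group, 5 tested copies had at least 100 reads in 1 library and at most 1 in another. Of these, copies 277304, 493424 and 650142 belong to loci called higher, 1842179, 3099272 and 4009022. Their low libraries are controls and their libraries with at least 100 reads are UVB libraries, so this contrast lies between the groups. In 13 tested copies 1 library held more than 50% of the reads.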
